A study of Homo sapiens with 6 samples.

Results

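The genes described here are 9 rows of the deposited count table that encode receptors, ligands and a binding protein of the fibroblast growth factor (FGF) family. They are the receptor kinases FGFR1, FGFR2, FGFR3 and FGFR4, the kinase-lacking receptor FGFRL1, the ligands FGF2 and FGF5, the intracellular FGF homologous factor FGF11, and the carrier FGFBP1. They were taken as a list of symbols, and all 9 had a row among the 21676 symbols of the table. The 9 genes and all lists below were chosen with earlier results of these data known, so their shares of called genes carry no test. The libraries came from the 83 cell line, described by its submitters as a SACC cell, an abbreviation that usually stands for salivary adenoid cystic carcinoma. There were 3 control libraries and 3 libraries of cells that overexpressed ApoD, apolipoprotein D, a secreted carrier of small lipids. The labels do not say how ApoD was introduced, what the control cells received, whether either line was a single clone, or whether the libraries of a group were separate cultures. What the p-values capture is the variation among these 6 libraries, and part or all of it may be technical.

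FGF ligands leave the cell, bind heparan sulfate chains on proteoglycans, and join with those chains to pair receptor kinases at the cell surface. The activated receptor phosphorylates the docking protein FRS2, which passes the signal to RAS and ERK, and ERK in turn induces inhibitors of the same route. In glandular and squamous epithelium the receptors FGFR2 and FGFR3 are typical, while FGFR1 is more often a receptor of mesenchymal cells. FGFRL1 binds ligand and heparin but has no kinase domain. FGFBP1 is a secreted chaperone that frees FGF2 from the matrix.

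Each library held 37542568 to 40416964 counts. APOD had 2 to 9 counts in the controls and 528 to 628 with ApoD overexpression. All 9 epithelial markers looked at, EPCAM, CDH1 and 7 keratins, had counts, and their summed level was 3483 to 4558 CPM in controls and 3965 to 4477 CPM with ApoD overexpression (CPM is counts per 1000000 of the scaled library). Of 8 adenoid cystic carcinoma markers 6 had counts, and KIT and SOX10 had no row among the 21676 symbols. MYB stood at 9.82 ± 2.96 and 6.75 ± 1.10 CPM and NFIB at 15.99 ± 1.10 and 14.95 ± 1.14 CPM (SD, n = 3, control and ApoD overexpression). TP63 and ACTA2 fell. EN1 had a log2 fold change of −0.39 ± 0.47 (SE, edgeR adjusted p = 0.514), and CNN1 had too few counts to be tested. Of the 9 epithelial markers 5 fell, among them KRT19, KRT14 and CDH1 with log2 fold changes of −2.46, −1.75 and −1.29, and KRT7 rose. Of 8 fibroblast markers 6 had counts, summing to 26.9 to 32.6 CPM in controls against 9.86 to 13.8 CPM; COL3A1 and COL1A1 fell, and COL1A2, DCN and LUM had 0 or 1 count in each library. Of 6 endothelial markers 4 had counts, summing to 8.11 to 13.4 CPM against 1.35 to 2.30 CPM, and CDH5, VWF and PECAM1 fell. Of 6 leukocyte markers 5 had counts, summing to 15.8 to 32.9 CPM against 36.7 to 39.1 CPM, nearly all from CD68, which rose, while PTPRC was counted 1, 12 and 0 times in controls and 0 times in each other library. These markers moved with the FGF genes below, and their part in those results was not tested. In bulk RNA, fewer cells of a type and less RNA per cell cannot be told apart. Of the tested genes, 48.8% passed an adjusted p of 0.05 in edgeR's quasi-likelihood test, 24.2% as higher and 24.6% as lower with ApoD overexpression. That split, 3539 higher and 3601 lower, moved to 2580 and 4435 with library totals in place of TMM, and to 2515 and 3324 with limma on log2(FPKM + 1).

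With ApoD overexpression FGF2, FGFRL1 and FGFR1 rose and FGFR3 and FGFR4 fell. FGF2 was 2.44-fold higher, FGFRL1 1.77-fold and FGFR1 1.68-fold higher, while FGFR3 was 1.88-fold and FGFR4 2.54-fold lower. FGFR2, FGF11 and FGFBP1 did not pass the test, and FGF5 had too few counts to be tested. The called genes were thus 5 of the 8 that passed the low-count filter, 62.5% beside 48.8% of all tested genes, so the count of calls says little about this family. Libraries of the groups did not overlap in CPM for 6 of the 8, beside 58.7% of all tested genes. The median log2 fold change of the 8 was −0.05, and that of all tested genes was −0.02.

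**Figure D1:**
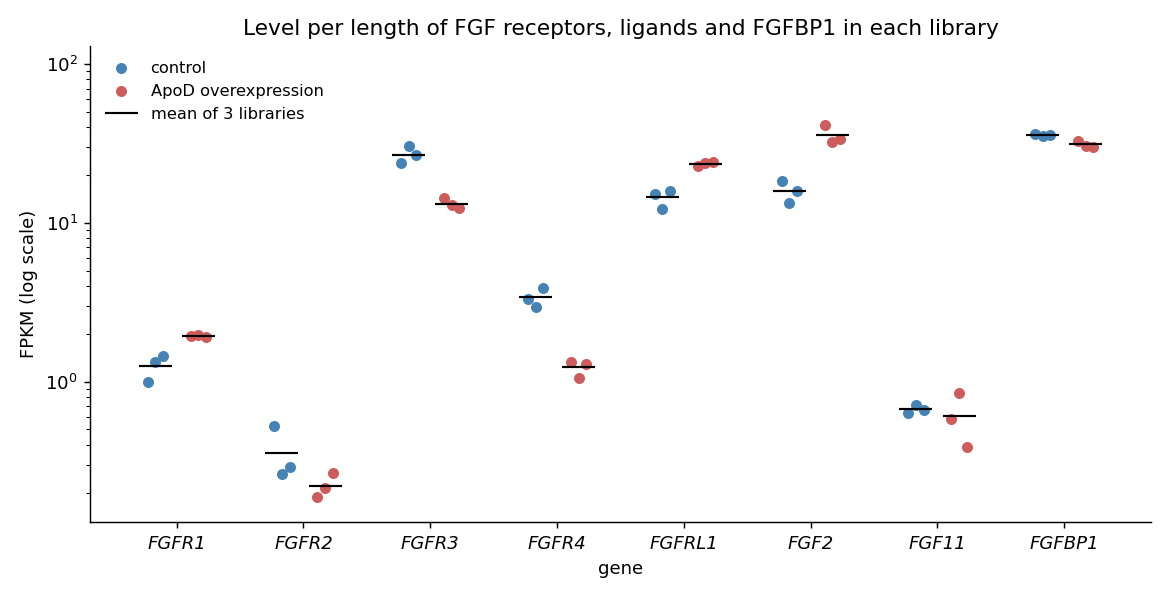
FPKM (fragments per kilobase of gene length and per 1000000 counts, log axis) of the 8 tested genes in each library, with a point per library and a line at the mean of the 3 libraries of a group. FGFR3 and FGFR4 sit lower and FGFR1, FGFRL1 and FGF2 higher in all 3 ApoD overexpression libraries, while FGFR2 and FGF11 overlap between the groups.

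Ligands were led by FGF2, a broad-acting heparin-binding growth factor that is secreted without a signal peptide. Its deposited level per length was 18.4, 13.3 and 15.9 FPKM in control replicates 1, 2 and 3 and 41.1, 32.3 and 33.6 FPKM in ApoD overexpression replicates 1, 2 and 3. The lowest ApoD overexpression library lay well above the highest control, so the groups did not overlap. In counts, this was 3555 to 4921 against 8210 to 11258. The log2 fold change was 1.28 ± 0.13 (SE; edgeR adjusted p = 1.47e-05). By mean FPKM FGF2 stood above 74.5% of tested genes in controls and above 87.05% with ApoD overexpression. In the GENCODE 29 annotation 11.9% of the exonic bases of FGF2 are shared with NUDT6, a gene on the other strand. NUDT6 was looked at for this overlap; it fell, with a log2 fold change of −0.76 ± 0.24 (SE; edgeR adjusted p = 0.0206) and 168, 227 and 220 counts in controls against 152, 81 and 105. The strand setting of the counting is not given in the sources used here, so reads of the shared bases cannot be assigned to either gene.

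FGF5, a secreted ligand known as a brake on hair growth, was near absent. Its counts were 7, 2 and 10 for the controls and 0, 6 and 5 for ApoD overexpression, so that controls held 1.73 times the share of the other group (95% counting interval 0.781 to 4.02). A difference was not detectable at this depth, and the interval covers counting error only. FGF11 belongs to the homologous factors that stay inside the cell and bind sodium channels. Its counts were 66, 75 and 68 for the controls and 62, 84 and 41 for ApoD overexpression, so that the ApoD overexpression libraries spread on both sides of the controls. Its log2 fold change was −0.03 ± 0.34 (SE; edgeR adjusted p = 0.949), and its sign turned to 0.48 when each library's trend with abundance was removed (adjusted p = 0.277). In GENCODE 29, 75% of the exonic bases of FGF11 lie also in an unnamed transcript of the same strand, AC113189.4. That transcript has no row among the counted symbols.

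Of the other 19 ligands and homologous factors of the family, 12 had any count and 1, FGF1, passed the filter. FGF1, an acidic ligand that binds every FGF receptor, was counted 72, 32 and 24 times in controls against 1, 8 and 1 times. It fell by 3.50 ± 0.77 on the log2 scale (SE; edgeR adjusted p = 0.00277). It fell by 5.19 without ApoD overexpression replicate 2, which held 8 of the 10 counts of its group, and fell by 2.87 without control replicate 1. On unfiltered log2(FPKM + 1) its call was lost (limma adjusted p = 0.0517). FGF17, a ligand of the FGF8 group, had 21, 4 and 24 counts against 0, 0 and 1, a 49.0 times larger share in controls (95% counting interval 8.40 to 1975). FGF19, an endocrine ligand that needs a Klotho co-receptor, had 22, 3 and 34 counts against 0, 1 and 6, an 8.43 times larger share (interval 3.85 to 21.9). Control replicate 2 was low for both FGF17 and FGF19, and its FGF19 count lay inside the range of the ApoD overexpression libraries. Both intervals pool the libraries of a group and cover counting error only, not the spread among libraries. FGF18 (32 against 15 counts in all), FGF13 (30 against 12) and FGF12 (22 in each group) overlapped between the groups. FGF8, FGF9, FGF14, FGF20, FGF21 and FGF22 had under 10 counts in every library. Without the low-count filter 3 of the 12 genes with any count were called lower, FGF1 among them. Among the secreted ligands with a row, FGF2 held nearly all counts in both groups. It had 12658 counts in controls and 28562 with ApoD overexpression, beside 128 and 10 for FGF1.

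Among the receptor kinases FGFR3 was the most abundant in every library. FGFR3 is a known oncogene of bladder carcinoma. Its level was 23.7, 30.4 and 26.5 FPKM in the controls and 14.3, 12.99 and 12.3 FPKM with ApoD overexpression. The groups did not overlap, and the highest ApoD overexpression library was well under the lowest control. FGFR3 fell by 0.91 ± 0.11 on the log2 scale (SE; edgeR adjusted p = 4.03e-05), on 14166 counts in the controls and 6966 in the other group. FGFR4, the receptor through which FGF19 acts in liver, stood at 3.315, 2.97 and 3.89 FPKM in the controls and 1.34, 1.06 and 1.29 FPKM with ApoD overexpression. No library of one group reached the other, and FGFR4 fell by 1.35 ± 0.17 (SE; edgeR adjusted p = 6.73e-05).

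FGFR1 was the receptor kinase that rose. Its level was 0.992, 1.33 and 1.45 FPKM in the controls and 1.95, 1.98 and 1.90 FPKM with ApoD overexpression, with control replicate 1 the lowest library. The log2 fold change was 0.75 ± 0.15 (SE; edgeR adjusted p = 0.00138). Against a change of at least 1.5-fold it no longer passed (glmTreat adjusted p = 0.237; range over the alternatives 2.76e-05 to 0.237). FGFR2, whose exon forms separate epithelial from mesenchymal ligand binding, was low, at 0.523, 0.260 and 0.289 FPKM in the controls and 0.186, 0.213 and 0.264 FPKM with ApoD overexpression. Control replicate 1 stood apart from the other controls, and control replicate 2 lay inside the range of the ApoD overexpression libraries. In scaled CPM control replicates 2 and 3, at 2.173 and 2.343, both lay inside that range, 1.651 to 2.375. FGFR2 had a log2 fold change of −0.58 ± 0.32 (SE; edgeR adjusted p = 0.147), which was −0.18 without control replicate 1. A count per gene does not separate the exon forms of FGFR1, FGFR2 and FGFR3.

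FGFRL1, the receptor without a kinase, rose as FGFR1 did. It stood at 15.3, 12.2 and 15.9 FPKM in the controls and 22.7, 23.8 and 24.0 FPKM with ApoD overexpression, with no overlap. It rose by 0.82 ± 0.11 on the log2 scale (SE; edgeR adjusted p = 7.69e-05). FGFBP1, the carrier of FGF2, was among the more abundant transcripts, above 87.8% of tested genes in controls. Its level was 36.2, 35.0 and 36.0 FPKM in the controls and 32.9, 30.5 and 30.2 FPKM with ApoD overexpression. The scaled levels of the groups nearly met, at 45.60 CPM in the lowest control and 45.59 CPM in the highest ApoD overexpression library. The log2 fold change was −0.08 ± 0.09 (SE; edgeR adjusted p = 0.502). On log2(FPKM + 1) limma called it lower, with a difference of −0.19 (adjusted p = 0.0444), while edgeR with library totals gave −0.20 and did not call it (adjusted p = 0.0869).

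**Figure D2:**
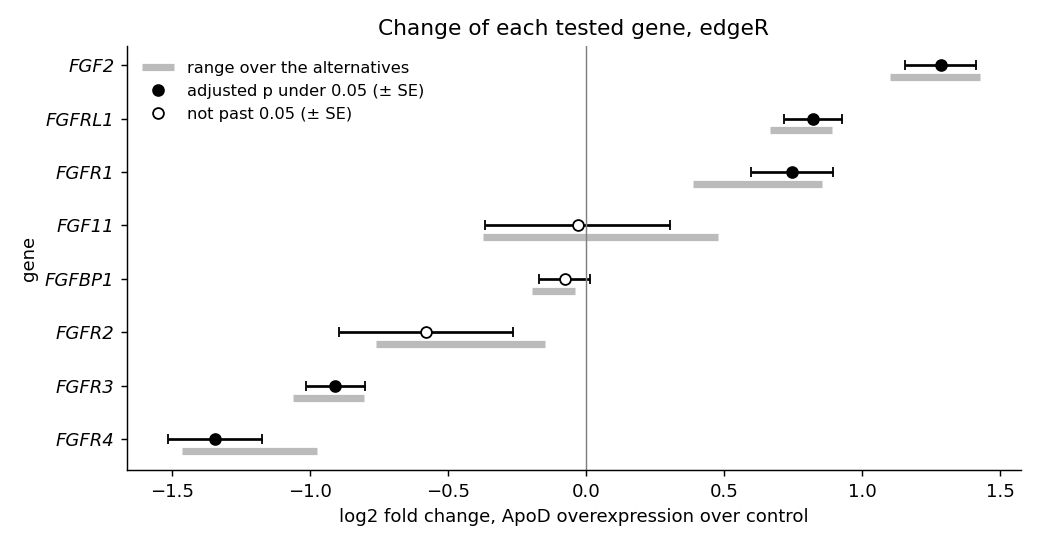
Log2 fold change of each tested gene, ApoD overexpression over control, with its SE (filled, adjusted p under 0.05; open, not past it) and a grey bar for the range over the alternative fits. The 5 filled genes keep their sign over the whole range, from 0.39 to 0.86 for FGFR1 and from −1.46 to −0.98 for FGFR4, and FGF11 spans 0. The ends 0.39 and −0.98 are differences of log2(FPKM + 1), where log2(FPKM + 0.1) gave 0.60 and −1.39.

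The order of levels per length changed between the groups. In controls FGFBP1 was highest at 35.7 ± 0.617 FPKM, followed by FGFR3 at 26.9 ± 3.35, FGF2 at 15.9 ± 2.58 and FGFRL1 at 14.4 ± 1.95 FPKM (SD, n = 3). FGFR4, FGFR1, FGF11, FGFR2 and FGF5 followed in that order. The libraries of FGF2 and FGFRL1 overlapped in the controls, and every other pair of neighbours was apart. With ApoD overexpression FGF2 was highest at 35.7 ± 4.76 FPKM, ahead of FGFBP1 at 31.2 ± 1.46, FGFRL1 at 23.5 ± 0.676 and FGFR3 at 13.2 ± 1.003 FPKM (SD, n = 3). There FGF2 and FGFBP1 overlapped, FGFR1 stood above FGFR4, and the other neighbours were again apart. FGF2 per FGFBP1 was 0.443 ± 0.0654 in controls against 1.14 ± 0.0990 as a ratio of FPKM (SD, n = 3; exact permutation p = 0.1, two-sided, the smallest that 3 against 3 libraries allow).

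The summed level of the 4 receptor kinases was lower with ApoD overexpression. It was 28.55, 34.95 and 32.2 FPKM in the controls and 17.8, 16.2 and 15.8 FPKM in the other group, with no overlap (exact permutation p = 0.1, two-sided). Of that sum FGFR3 made up 84.2% ± 2.42 in controls against 79.5% ± 1.23 in the other group (SD, n = 3). FGFR4 made up 10.7% ± 1.95 and 7.40% ± 0.825. FGFR1 made up 3.475%, 3.81% and 4.51% in the controls and 10.96%, 12.2% and 12.0% with ApoD overexpression. FGFR2 made up 1.16% ± 0.587 and 1.34% ± 0.313, within the spread. The exact permutation p was 0.1 for the shares of FGFR1, FGFR3 and FGFR4 and 0.7 for FGFR2, and 0.133 for the first 3 after Benjamini-Hochberg adjustment over the 4 shares. FGFRL1 per summed kinase receptor was 0.535, 0.350 and 0.493 in the controls and 1.28, 1.465 and 1.52 with ApoD overexpression, as a ratio of FPKM, so the receptor without a kinase was the less abundant in every control and the more abundant in every ApoD overexpression library.

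**Figure D3:**
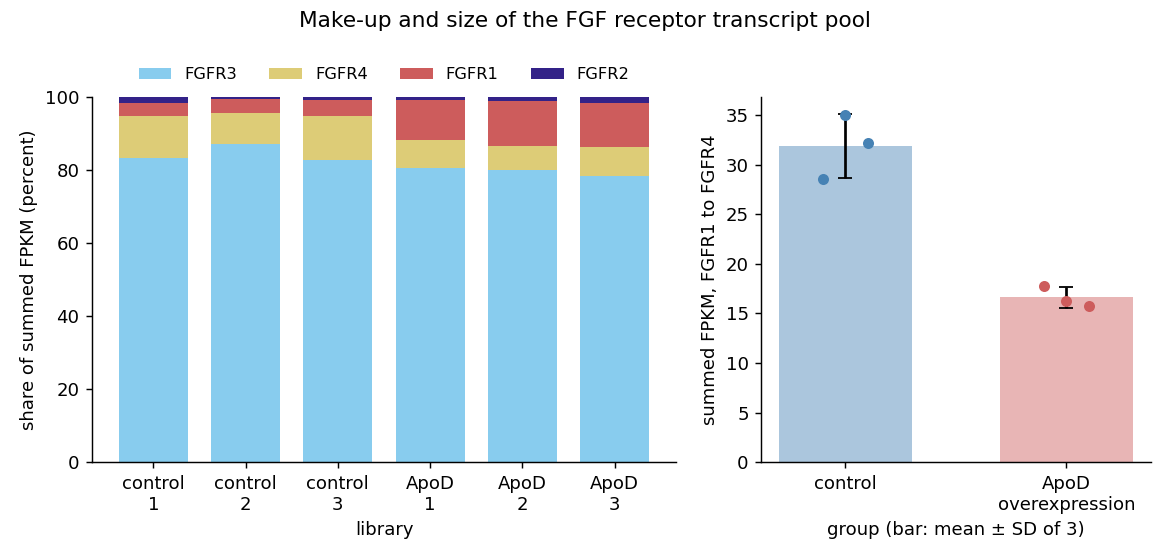
Left, share of each receptor kinase in the summed FPKM of FGFR1 to FGFR4 in each library; right, that sum per library (points) with bars for the mean and SD of 3 libraries. FGFR3 takes 78.1% to 87.0% of the sum in every library, the share of FGFR1 is 3.93% on average in controls and 11.7% with ApoD overexpression, and the sum is 31.9 and 16.6 FPKM.

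Genes with the most similar pattern over the 6 libraries were looked for by the root mean square difference of mean-centred log2 CPM, among 12653 genes with at least 1 CPM on average. For FGFR3 these were STEAP3 (0.0401) and FAM234A (0.0418), for FGFR4 CXXC5 (0.0799) and OSBPL7 (0.0853), and for FGF2 PTGER4 (0.0876) and POLR3G (0.120). HYDIN (0.055) and TIMP1 (0.0627) were nearest to FGFR1, and RAB3IL1 (0.0499) and ADCY3 (0.0519) to FGFRL1. These distances describe 6 libraries that fall into 2 groups and carry no test.

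RefSeq upstream sequences (GRCh38.p14) are shown for some of the genes that moved, FGF2, FGFR3 and FGFR4, and for FGFBP1, which did not pass the test, because they differ in base composition. Windows of 250 bases before a RefSeq start were matched by symbol for 8 of the 9 genes, taking the most upstream start. The printed stretch ends before the first exon that GENCODE 29 annotates in the window. The window of FGFRL1, which also meets an annotated exon, is not shown, and FGFR1 had no window. Capitals mark GGGCGG or its complement, the GC box bound by SP1-type factors, and CACCTG or its complement, an E box of the kind bound by SNAI and ZEB factors.
FGF2, chr4:122826581-122826707, plus strand: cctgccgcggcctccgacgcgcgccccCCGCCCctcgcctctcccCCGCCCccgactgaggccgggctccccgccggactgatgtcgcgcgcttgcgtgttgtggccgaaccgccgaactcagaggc
FGFR3, chr4:1793043-1793292, plus strand: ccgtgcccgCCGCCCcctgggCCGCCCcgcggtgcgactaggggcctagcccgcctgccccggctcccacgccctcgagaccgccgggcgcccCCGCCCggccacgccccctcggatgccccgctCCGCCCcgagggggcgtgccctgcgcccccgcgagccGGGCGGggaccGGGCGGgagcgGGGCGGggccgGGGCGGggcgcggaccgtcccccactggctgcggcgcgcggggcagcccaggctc
FGFR4, chr5:177086665-177086885, plus strand: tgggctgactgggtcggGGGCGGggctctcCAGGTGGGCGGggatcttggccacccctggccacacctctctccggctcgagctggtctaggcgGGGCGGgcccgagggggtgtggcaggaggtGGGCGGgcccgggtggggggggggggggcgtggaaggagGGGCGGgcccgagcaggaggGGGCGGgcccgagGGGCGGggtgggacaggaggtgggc
FGFBP1, chr4:15938741-15938990, minus strand: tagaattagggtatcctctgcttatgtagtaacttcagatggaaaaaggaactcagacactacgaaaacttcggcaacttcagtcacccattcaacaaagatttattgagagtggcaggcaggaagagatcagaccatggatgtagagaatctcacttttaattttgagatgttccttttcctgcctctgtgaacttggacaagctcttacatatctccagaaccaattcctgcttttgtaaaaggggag

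The 250-base window of FGFR3 had 86.8% G and C, above 99.8% of all 35116 windows of that length, that of FGFR4 79.6% and that of FGF2 75.2%, while that of FGFBP1 had 40.8%, with a median of 58% over all windows. GGGCGG was found on either strand 8 times for FGFR3, 7 times for FGFR4, 4 times for FGFRL1, 3 times each for FGF2 and FGFR2, 2 times for FGF11, 1 time for FGF5 and 0 times for FGFBP1, and 42.6% of all windows hold it. CACCTG was found 1 time, in FGFR4, where its complement overlaps a GGGCGG (17.5% of windows hold it), and CACGTG 1 time, in FGFRL1 (6.34% of windows). The AP-1 site TGANTCA, the TEAD site CATTCC and TATAAA were in 0 of the 8 windows, and 6.57%, 11.9% and 10.7% of all windows hold them. Genes that rose and genes that fell thus shared the GC box, and these matches are letters in a window, not sites shown to be bound. Of the 9 genes, 5 are on chromosome 4: FGFRL1, FGFR3, FGFBP1, FGF5 and FGF2.

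Heparan sulfate proteoglycans, which hold FGFs at the surface and complete the receptor complex, fell in 6 of 9 tested carriers and rose in 0, 66.7% called beside 48.8% of all tested genes, with a median log2 fold change of −0.27 against −0.02 for all tested genes. HSPG2, which encodes the basement membrane proteoglycan perlecan, fell from 215 ± 19.0 to 90.1 ± 7.997 CPM (SD, n = 3; edgeR adjusted p = 3.73e-06). The glypicans GPC2 and GPC1 fell, with log2 fold changes of −1.50 ± 0.26 and −0.83 ± 0.09 (SE), and the syndecan SDC3 with −0.63 ± 0.09. The syndecans SDC1 and SDC4, named after their values were seen, were abundant and did not pass, at 324 and 355 CPM for SDC1 and 491 and 422 CPM for SDC4 (control and ApoD overexpression means). With the replicate number as a block 4 of the carriers were called lower, beside 3260 of all 14629 tested genes. Against a change of 1.5-fold 3 were, beside 1430 of all tested genes. With each library left out 4 to 7 were.

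The enzymes that build and edit the chains were mixed, with 5 of 16 tested members higher and 3 lower, 50% called beside 48.8% of all tested genes, a share near the background. The 3-O-sulfotransferases HS3ST3A1 and HS3ST3B1 rose by 1.15 ± 0.26 and 1.13 ± 0.33 on the log2 scale (SE), from 1.91 to 4.23 CPM and from 1.03 to 2.26 CPM. The call of HS3ST3B1 was lost without control replicate 2 (edgeR adjusted p = 0.059) or ApoD overexpression replicate 3 (0.0586). HS6ST2, a 6-O-sulfotransferase, rose from 48.1 ± 3.996 to 82.4 ± 1.84 CPM (SD, n = 3; edgeR adjusted p = 5.11e-05). The sulfatases that remove 6-O-sulfate from finished chains went in opposite directions: SULF1 fell by 1.52 ± 0.38 and SULF2, named after its value was seen, rose by 0.59 ± 0.17 (SE). With the abundance trend removed 6 enzymes were called higher and 6 lower, beside 3238 and 3379 of all 14629 tested genes. Against a change of 1.5-fold 1 was called higher and 1 lower, beside 545 and 1430.

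Among co-receptors and other FGF binding proteins 1 of 8 tested members rose and 2 fell, 37.5% called beside 48.8% of all tested genes, so the count is no result about this list. N-cadherin, encoded by CDH2 and able to bind FGFR1, rose from 24.5 ± 4.15 to 46.4 ± 4.88 CPM (SD, n = 3; edgeR adjusted p = 0.000167). FLRT3, a membrane protein that binds FGF receptors, fell from 1.99 ± 0.311 to 0.708 ± 0.177 CPM (SD, n = 3; edgeR adjusted p = 0.00365). ANOS1, the secreted protein anosmin, passed narrowly (edgeR adjusted p = 0.0493, log2 fold change −1.38 ± 0.53 SE) and lost its call without control replicate 2 or 3 or ApoD overexpression replicate 1 or 3 (0.110 to 0.150). Without ApoD overexpression replicate 2 its log2 fold change was −2.05. The co-receptors KL and KLB had no row among the 21676 symbols.

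The regulators of FGFR2 exon choice rose in 6 of 8 tested members and fell in 1, 87.5% called beside 48.8% of all tested genes (24.2% higher), with a median log2 fold change of 0.45 against −0.02 for all tested genes. ESRP1 and ESRP2 favour the epithelial exon, and PTBP1 represses it. ESRP1 fell from 29.7 ± 0.927 to 16.4 ± 2.04 CPM and ESRP2 rose from 14.4 ± 1.59 to 23.3 ± 2.74 CPM (SD, n = 3; edgeR adjusted p = 0.000112 and 0.000941). HNRNPM rose by 1.07 ± 0.19 and HNRNPH1 by 0.56 ± 0.10 on the log2 scale (SE). PTBP1, named after its value was seen, rose by 0.52 ± 0.09 (SE). HNRNPM varied among the controls, with 15373, 10330 and 7834 counts. Of these 8, 1 was called higher against a change of 1.5-fold, beside 545 of all 14629 tested genes. With the abundance trend removed 4 were called higher, beside 3238 of all tested genes.

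Adaptors and kinases downstream of the receptors rose in 5 of 25 tested members and fell in 8, 52% called beside 48.8% of all tested genes, a share near the background, with a median log2 fold change of −0.0005 against −0.02. The docking protein FRS2 had a log2 fold change of 0.07 ± 0.14 (SE; edgeR adjusted p = 0.698; named after its value was seen). GAB1, an adaptor recruited by FRS2 and GRB2, the RAS exchange factor SOS2, and MAPK3, which encodes ERK1, fell, with log2 fold changes of −1.05 ± 0.23, −0.92 ± 0.16 and −0.91 ± 0.10 (SE). HRAS rose by 0.72 ± 0.11. With library totals in place of TMM 3 were called higher and 10 lower, with the abundance trend removed 2 and 10, and without control replicate 2 there were 3 and 5. Without control replicate 3 the lower ones were 5, and against a change of 1.5-fold there were 0 higher and 1 lower.

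Feedback inhibitors and targets of FGF and ERK signalling rose in 10 of 18 tested members and fell in 3, 72.2% called beside 48.8% of all tested genes (24.2% higher and 24.6% lower), with a median log2 fold change of 0.59 against −0.02. SPRY4, a Sprouty inhibitor of receptor signalling, was counted 34, 37 and 76 times in controls against 139, 119 and 145 times, with no overlap, and rose by 1.57 ± 0.32 on the log2 scale (SE; edgeR adjusted p = 0.00168). FOSL1, which encodes an AP-1 subunit, and CCND1, which encodes cyclin D1, rose by 1.71 ± 0.13 and 1.22 ± 0.11 (SE). SPRY2, the phosphatase DUSP4 and the ETS factors ETV4 and ETV5, all named after their values were seen, rose by 0.87 ± 0.16, 1.04 ± 0.13, 0.82 ± 0.17 and 1.09 ± 0.20 on the log2 scale (SE). Counts varied among the controls, at 789, 848 and 1314 for ETV4 and 459, 631 and 969 for ETV5. Other members differed: DUSP6 was counted 363, 620 and 903 times in controls against 766, 718 and 784 times (edgeR adjusted p = 0.189). SPRY1, with a log2 fold change of −0.34 ± 0.20 (SE), SPRED1, SPRED2 and SPRED3 did not pass (edgeR adjusted p = 0.189, 0.149, 0.240 and 0.522). The ERK phosphatase DUSP5 fell by 1.10 ± 0.22 and the FGF receptor antagonist IL17RD fell by 0.63 ± 0.17 on the log2 scale (SE), and these members too were named after their values were seen. EGR1, an immediate early target, fell by 2.36 ± 0.25 (SE). Against a change of 1.5-fold 5 were called higher and 2 lower, beside 545 and 1430 of all 14629 tested genes.

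**Figure D4:**
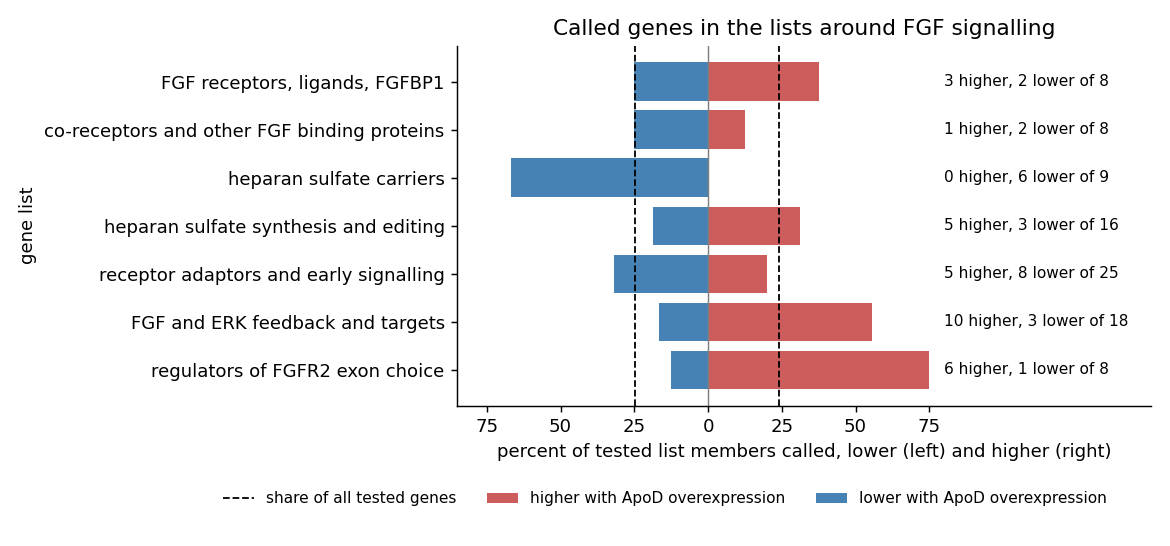
Percent of the tested members called lower (left, blue) and higher (right, red) at an adjusted p under 0.05 in the 7 FGF lists with at least 8 tested members, with dashed lines at the shares of all tested genes, 24.6% lower and 24.2% higher. Of these 7, heparan sulfate carriers reach furthest to the left with 6 of 9, and the exon-choice regulators with 6 of 8 and the feedback genes and targets with 10 of 18 furthest to the right.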

How the data were processed

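RNA was sequenced from 3 control libraries and 3 libraries with ApoD overexpression of the 83 cell line. The authors deposited whole-number read counts and FPKM values per gene symbol, per the file headers; the aligner, counting program, strand setting and build: not given in the sources used here. Of 108650 FPKM values above 0, 108650 equalled the deposited count over the column total and 1 length per gene, within a relative tolerance of 1e-06. Counts were tested with edgeR 4.0.16 (R 4.3.3): TMM scaling, filterByExpr with a minimum count of 10 (14629 genes kept), a quasi-likelihood F test with group as the only term, two-sided, Benjamini-Hochberg adjustment over those genes, threshold 0.05. SEs are the log2 fold change over the root of F. CPM uses the TMM-scaled library. The code was tested on simulated counts first. Alternatives were DESeq2 size factors, library totals, per-library offsets that remove the abundance trend, the DESeq2 1.42.0 Wald test, no filter, the replicate number as a block, each library left out, glmTreat at 1.5-fold, and limma 3.58.1 on log2(FPKM + 1), with and without a filter of 1 FPKM in 3 libraries, or log2(FPKM + 0.1). The 9 genes and all lists were chosen with earlier results of these data known. Named are the 9 genes, other FGF genes with at least 10 counts in a library, up to 4 called genes per list by size of change, and the 2 nearest patterns per gene. Counting intervals are 95% Clopper-Pearson. 0 columns were left without a sample.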

Additional observations from a re-analysis of the deposited data

How the results depend on the processing

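The counts of FGF genes called, 3 higher and 2 lower, kept within 1.5 times under each of the 16 alternatives. For FGF2, FGFRL1, FGFR3 and FGFR4 the call and direction held under every alternative. Their log2 changes were 1.10 to 1.43, 0.66 to 0.89, −1.06 to −0.80 and −1.46 to −0.98. The −0.98 of FGFR4 is a difference of log2(FPKM + 1), which the added 1 shrinks at low FPKM. On log2(FPKM + 0.1) it was −1.39. FGFR1 lost its call against a 1.5-fold change (0.75, adjusted p = 0.237) and held it in the other 15. Library totals moved the median of all tested genes to −0.13, and FGFR1 and FGFRL1 then rose by 0.63 and 0.70. FGFBP1 was called lower on FPKM, with −0.19 on log2(FPKM + 1), filtered or not, and −0.20 on log2(FPKM + 0.1). FGF11 had a positive sign with the abundance trend removed (0.48), without control replicate 2 (0.03) and without ApoD overexpression replicate 1 (0.04) or 3 (0.23); over the left-out libraries it ran from −0.37 to 0.23. FGF5 was fitted without the filter only (−0.60 ± 1.22 SE, adjusted p = 0.733). The difference in the share of FGFR2 was −0.0216 points without control replicate 2, in a range of −0.0216 to 0.521. With counts in place of FPKM the differences in share were 12.0 points for FGFR1 and −9.53 for FGFR3, since counts are not divided by gene length (7668 bases for FGFR1 and 4469 for FGFR3). All genes called numbered 545 higher and 1430 lower against a 1.5-fold change, and 2317 higher and 3948 lower on unfiltered log2(FPKM + 1).

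Same-numbered libraries deviated from their group means together with r of −0.12, −0.01 and −0.04 over genes. Libraries of different number gave r from −0.05 to 0.08, so no pairing by number was seen. With the replicate block the log2 fold change of FGFR1 was 0.76, that of FGF2 1.29 and that of FGFR3 −0.90, and 3088 genes were called higher and 3260 lower. Depth limits what can be said of FGF5, FGF12, FGF13, FGF17, FGF18 and FGF19, which have under 60 counts per group.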
